A study of Homo sapiens with 23 samples.

Results

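Short-range YY1 HiChIP contacts were bin pairs of the HiChIP table whose anchor starts lay under 50 kb apart on the same chromosome, with neither anchor on one of the 751 SVA retrotransposons listed by the study. There were 504122 such pairs among 4048169 in the table (12.5%). A further 1300 pairs of the same distance had an anchor on an SVA and were left out, and 3534173 pairs without an SVA spanned at least 50 kb. The table is built on 5 kb bins, so the short-range pairs span 10 to 45 kb. All but 3 of them, which lie on the mitochondrial sequence, are on the assembled chromosomes of hg19. The sources used here do not say how a pair entered the table, so a listed pair is treated below as a recorded contact and not as a tested loop.

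The cells were NCCIT, a human embryonal carcinoma line with stem-like properties. In the SCi-NCCIT derivative, a tetracycline-inducible dCas9-KRAB repressor and 2 guide RNAs against SVAs had been inserted with piggyBac transposons. The guides match a sequence that SVAs share with the LTR5Hs repeat family and so target LTR5Hs elements too. Anchors on LTR5Hs elements or on SVAs outside the list were not left out here. The cells were kept without doxycycline or given 2 µg/mL for 72 hours. YY1 HiChIP was made from 3 libraries of each condition, YY1 and H3K9me3 ChIP-seq from 2 of each, OCT4 ChIP-seq from 1 of each and RNA-seq from 3 of each, and 1 more H3K9me3 library came from parental NCCITs without the repressor. Cells without doxycycline carried the guides and the uninduced repressor. No library came from cells that received doxycycline without the repressor, so effects of the drug and of the repressor cannot be told apart. After puromycin selection for the repressor, stable clones were isolated and checked for dCas9, and the sources used here do not say whether the cells assayed came from 1 clone or several. Nothing says whether replicates came from separate cultures, so p-values measure the spread between these libraries. The columns of HiChIP counts carry names that match no sample, so contacts are given for all 6 HiChIP libraries together and were not compared between conditions.

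YY1 is a zinc finger protein that binds promoters and enhancers and can pair with itself, which brings the bound DNA segments together. HiChIP joins DNA ends that lie close in the nucleus and then keeps the fragments crosslinked to the protein of interest, here YY1, so contacts with at least one end at a YY1 site are favoured by the assay. OCT4, encoded by POU5F1, is a transcription factor of pluripotent cells, and H3K9me3 is a histone mark of silenced chromatin.

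The RNA matched the labelled cell type. All 8 pluripotent markers were expressed, with a summed level of 1642 to 1820 TPM (transcript abundance scaled by length and library) in the libraries without and 1257 to 1408 TPM in those with doxycycline. Of 13 markers of other cells, 9 stayed under 1 TPM in every library, and most of the summed 48.7 to 68.0 TPM came from the collagen gene COL3A1, at 52.0 ± 8.39 TPM without doxycycline (SD, n = 3). The RNA libraries held 14683302 to 47862234 estimated counts, and replicate 1 without doxycycline was the shallowest.

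The sequences at the strongest YY1 peaks in promoter anchors are shown because YY1 content is the feature along which listing differed most. The 7 windows below, read from the GRCh37 genome, lie at summits among those of highest fold enrichment without doxycycline that sit in a promoter anchor and hold the YY1 motif AANATGGCG on either strand. Each is printed on the strand that reads this motif, which is in capitals.
ZNF615: cagatactcaAAGATGGCGgcccccatgg
USP31: tcccacagtgAACATGGCGgccgaggcgg
LEMD2: agaccttcccAACATGGCGaccgaccttc
CCDC174: cgcccttctcAAGATGGCGcccacaccaa
ZNF143: ccctcgctacAAAATGGCGcctcccgctg
CPEB4: gcccacacaaAAGATGGCGacctgctgcg
ECH1: gcccttagtaAAGATGGCGgaaagaacgg

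The ZNF615 window is on the minus strand of chr19:52511523-52511551, the USP31 window on the minus strand of chr16:23160836-23160864 and the LEMD2 window on the minus strand of chr6:33756995-33757023. The CCDC174 window is on the plus strand of chr3:14693051-14693079, and the CPEB4 window on the plus strand of chr5:173315074-173315102. These 5 lie just upstream of the annotated transcripts. The ZNF143 window, on the plus strand of chr11:9482222-9482250, lies in a UTR of its gene. The ECH1 window, on the minus strand of chr19:39322534-39322562, lies in an intron of ENSG00000268083. Fold enrichment over background ran from 127 at ECH1 to 159 at ZNF615 in replicate 1, and all 7 summits were within 322 bp of a transcription start. The anchor of ECH1, which encodes a peroxisomal enzyme, had 15 short-range partners, and the other 6 anchors had 16.

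Short-range pairs became fewer with distance, from 84149 at 10 kb to 49259 at 45 kb, with a median span of 25 kb. To remove the effect of how many pairs are possible, a listed share was taken. It is the number of listed pairs over all pairs of bins at that distance with no unknown bases and none of the 751 SVAs. It fell from 14.8% at 10 kb to 8.67% at 45 kb. YY1 content separated the pairs far more than distance did. Of possible pairs with no YY1 peak in either anchor, 5.25% were listed, against 45.8% with YY1 in 1 anchor and 70.8% with YY1 in both, where a YY1 anchor held a peak in both libraries without doxycycline. At 45 kb the same shares were 3.57%, 38.8% and 65.8%. Pairs with YY1 in both anchors were only 5.29% of the listed pairs, those with YY1 in 1 anchor made up 53.8% and those without YY1 40.9%. Pairs that share an anchor are not independent, and a table limited beforehand to pairs at peaks would give such an order by construction, so these shares are a description without a test.

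**Figure D1:**
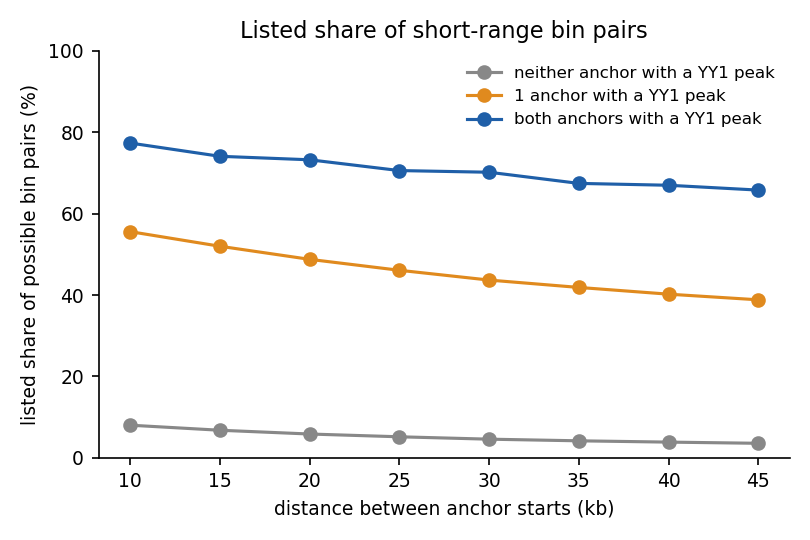
Listed share of possible bin pairs (%) against the distance between anchor starts (kb), for pairs with a YY1 peak in neither, 1 or both anchors. The 3 lines do not cross: the lowest value with YY1 in both anchors is 65.8% and the highest without YY1 is 8.02%.

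The order by YY1 content was also seen among bins of similar base composition. In the lowest of 5 classes of GC content, 1.95%, 30.3% and 53.4% of possible pairs were listed with YY1 in 0, 1 and 2 anchors. In the highest class the shares were 8.51%, 49.0% and 73.6%. Listing rose with GC at each YY1 level, and the difference between YY1 levels was larger than that between GC classes. Chromosomes differed as well. Pairs were listed most often on chromosomes 1 (17.8%), 19 (17.4%) and 17 (16.6%) and least often, among the autosomes, on chromosomes 4 (5.47%), 18 (5.97%) and 13 (6.07%). For pairs with at least 1 YY1 anchor the shares ran, among the autosomes, from 38.7% on chromosome 4 to 55.6% on chromosome 19. On chromosome Y, with 260 such possible pairs, the share was 4.23%.

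Pairs with OCT4 beside YY1 were listed more often than pairs with YY1 alone, and OCT4 on its own went with a smaller difference. The strength of YY1 peaks and promoter position were not held constant in these shares. Pairs with an OCT4 peak, from the library without doxycycline, in neither, 1 or both anchors were listed in 8.23%, 25.02% and 42.6% of cases. When both anchors had neither factor the share was 4.64%, and it was 9.57% when 1 of them had OCT4 alone. It was 41.2% with YY1 alone in 1 anchor and 53.4% with both factors there. Pairs with both factors in both anchors were listed in 77.4% of cases, and pairs with YY1 alone in both in 65.5%.

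Promoters followed the same pattern. A promoter anchor is one that holds the transcription start of a protein-coding gene, taken at its Ensembl canonical transcript. Pairs with 0, 1 and 2 promoter anchors were listed in 9.25%, 38.2% and 52.4% of cases. Without YY1 the difference was small: pairs of 2 promoters lacking YY1 were listed in 13.4% of cases, and pairs with neither promoter nor YY1 in 5.07%. A promoter with YY1 paired with a bin of neither kind in 63.4% of cases, and YY1 outside a promoter did so in 41.1%. Pairs of 2 promoters with YY1 had the highest share of these classes, 88.7%.

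The listed share differed little with H3K9me3. Pairs with this mark, from both libraries without doxycycline, in 0, 1 and 2 anchors were listed in 10.7%, 11.7% and 12.7% of cases. Pairs with the mark but no YY1 in either anchor were listed in 5.90% of cases, beside 5.07% for pairs with neither. With YY1 in both anchors the share was 72.6% without and 63.7% with H3K9me3 in both.

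The 504119 pairs on assembled chromosomes used 313135 distinct anchors, 54.8% of the 570823 bins that could serve as one. Of these anchors, 98.1% also took part in pairs of at least 50 kb. The number of partners was uneven. An anchor can have at most 16 short-range partners, 8 on each side, the median was 2, and 136387 anchors (43.6%) had 1. Anchors became rarer up to 14 partners, 3247 anchors, and then more frequent again, with 3704 at 15 and 6971 at 16, where the anchor is paired with every bin 10 to 45 kb away.

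The content of anchors changed with the number of partners. YY1 peaks were in 3.399% of anchors with 1 partner, 35.2% of those with 10 and 93.9% of those with 16. OCT4 peaks were in 7.13%, 21.3% and 51.8% of these anchors, and promoters in 2.01%, 8.46% and 43.8%. H3K9me3 stayed between 18.5% and 23.1% over all numbers of partners. Seen from the bins, promoters with YY1 had a median of 13 partners, YY1 bins without a promoter 6, and promoters without YY1 only 1, like bins with none of these features. At least 10 partners were reached by 63.3% of promoters with YY1 and by 5.70% of those without.

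Stronger YY1 peaks had more partners. When bins with a YY1 peak were split into 4 classes of about equal size by fold enrichment without doxycycline, the median number of partners was 3, 3, 8 and 15 from the weakest to the strongest. In the strongest class, with folds from 9.86 to 175, 79.4% of bins had at least 10 partners, beside 25.5% in the weakest. Promoters were 15.4% of the weakest and 39.0% of the strongest class, so strength and promoter position move together. Contacts went equally to both sides of the genes: promoters with YY1 were paired with 64.8% of bins downstream and 64.6% of bins upstream of the start.

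Motifs under the summits differed between the factors. The YY1 motif AANATGGC was found on either strand within 100 bases of 31.9% of the YY1 summits of replicate 1 without doxycycline, against 4.22% of windows of the same length at the centre of all bins. It was present at 32.04% of summits outside the anchors, 27.8% in anchors with 1 partner, 27.1% with 2 to 9, 35.1% with 10 to 15 and 43.0% with 16. In replicate 2 the shares were 40.4%, 35.5%, 34.2%, 37.9% and 42.5%. Anchors as a whole, at 31.9% and 36.6%, were not above summits outside them in either replicate. Summits in promoter anchors held the motif in 21.5% of cases and those in other anchors in 35.2%. The octamer ATGCAAAT, the site of OCT4 and related POU proteins, lay within the same distance of 10.3% of OCT4 summits, and of 2.04% of the windows at bin centres. Its share fell with the number of partners, from 13.3% outside the anchors and 11.01% with 1 partner to 4.92% with 16, and it was 2.64% in promoter anchors. A match to these letters is not in itself a binding site.

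Short-range anchors were richer in YY1 than bins that occur only in longer pairs, in every library. Without doxycycline, YY1 peaks were in 14.98% and 18.1% of short-range anchors in replicates 1 and 2, and in 3.63% and 5.83% of the 211265 bins found only in pairs of at least 50 kb. With doxycycline they were in 20.2% and 25.5% of short-range anchors and in 6.45% and 10.1% of the other bins. Most YY1 summits of each library, 79.4% to 85.8%, lay in a short-range anchor, as did 72.2% and 76.2% of OCT4 summits and 56.7% to 59.0% of H3K9me3 summits. Promoters were 4.66% of short-range anchors and 1.504% of the bins found only in longer pairs.

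The share of anchors with a YY1 peak was 16.5% ± 2.22 without and 22.8% ± 3.75 with doxycycline (SD, n = 2 each). The libraries with doxycycline were both above those without, but the exact two-sided permutation test gave p = 0.333, the smallest that this test allows with 2 against 2 libraries. The lists also differed in length, from 56370 and 76098 YY1 peaks without to 82005 and 115673 with doxycycline. With each list reduced to the same number of peaks, the difference of the means fell from 6.25 to 0.40 percentage points. YY1 was gained in both libraries with doxycycline, having been absent from both without, at 5968 anchors (1.91%), and lost in the same sense at 209 (0.07%). Over all 570823 bins that could serve as an anchor, 1.46% gained and 0.05% lost YY1. Bins that gained YY1 and bins that lost it both had a median of 1 partner. The median was 8 for bins with YY1 in all 4 libraries and 0 for bins with YY1 in none.

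OCT4 peaks were in 11.5% of anchors without doxycycline (95% Wilson interval 11.4 to 11.7%) and 5.38% with it (5.31 to 5.46%). There was 1 library of each condition and therefore no test, and the intervals cover counting error only. The list without doxycycline was the longer, with 50775 peaks against 23352. At the same number of peaks the shares were 5.83% and 5.38%. H3K9me3 peaks were in 23.1% and 24.2% of anchors without and 17.5% and 23.8% with doxycycline, and in 19.9% in the parental cells. The means, 23.6% ± 0.83 and 20.7% ± 4.49, differed by less than the spread of the treated libraries (exact permutation test, p = 0.667).

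A gene was linked when its transcription start lay in a short-range anchor. Of 20162 protein-coding genes, 16130 (80.0%) were linked, and 3626 of them lay in an anchor with 16 partners. Linked genes with more partners were expressed at higher levels. The median level without doxycycline was 0.21 TPM for protein-coding genes whose bin was no anchor, 0.68 TPM with 1 partner, 2.96 TPM with 2 to 9, 16.9 TPM with 10 to 15 and 28.3 TPM with 16. At least 1 TPM was reached by 34.9% of unlinked genes and 93.4% of those with 16 partners. The quartiles overlapped between neighbouring classes, and between 1 partner (0.04 to 8.14 TPM) and 16 partners (10.8 to 67.4 TPM) they did not. Expression also differed with the factors in the anchor. The median of linked protein-coding genes was 24.2 TPM with YY1 and OCT4, 15.8 with YY1 alone, 5.23 with OCT4 alone and 0.40 with neither. YY1 content rises with the number of partners, and their separate relation to expression was not tested.

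**Figure D2:**
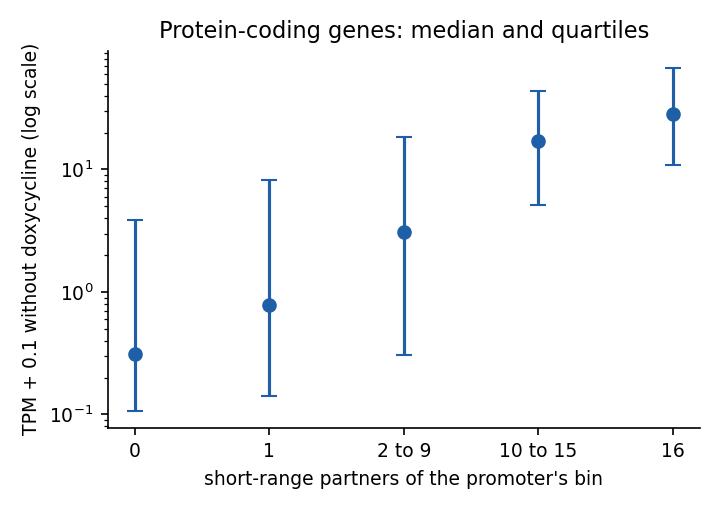
Expression of protein-coding genes without doxycycline (TPM plus 0.1, log scale) by the number of short-range partners of the bin with their start. Points are medians and bars run from the lower to the upper quartile; the median rises from 0.21 TPM at 0 partners to 28.3 TPM at 16.

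With doxycycline, RNA of linked genes changed about as often as RNA of all genes. In edgeR's quasi-likelihood test, 17.5% of the 16370 genes tested had an adjusted p under 0.05, with 8.97% higher and 8.49% lower with doxycycline. Of 13900 linked genes tested, 1290 rose and 1196 fell, which is 17.9%. Linked genes make up most of that background, so these 2 shares had to lie close. Of 2457 tested genes that were not linked, 169 rose and 193 fell (14.7%). Their median level was 3.83 CPM (counts scaled to library size), beside 24.4 CPM for linked genes tested. Among linked protein-coding genes with 16 partners, 288 rose and 321 fell (17.4%). Among protein-coding genes that were not linked, 151 rose and 179 fell (16.2%). In bulk RNA, fewer cells expressing a gene and less RNA per cell cannot be told apart. The split between rises and falls differed with the factors in the anchor, which was not tested. Linked protein-coding genes with both YY1 and OCT4 in their anchor rose in 436 and fell in 588 cases of 5355. Those with YY1 without OCT4 rose in 395 and fell in 250 of 3678. With OCT4 without YY1, 107 rose and 103 fell of 979. With neither factor, 325 rose and 199 fell of 3137, a split like that with YY1 alone. The number of linked genes called was 1260 without untreated replicate 2 and 1516 without untreated replicate 3. It was 1504 without treated replicate 1 and 1190 without treated replicate 2. In this order, these were 8.94%, 10.8%, 10.7% and 8.46% of the linked genes tested. Of all genes tested in the same fits, 8.82%, 10.5%, 10.5% and 8.39% were called.

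Genes of pluripotency were well connected and several fell. Of 24 protein-coding genes on this list, 23 were linked, 15 had at least 10 partners and 19 had YY1 in the anchor, where all protein-coding genes had a median of 3 partners and 35.4% had at least 10. None of the 21 linked genes tested rose and 12 fell, with a median log2 fold change of -0.25, beside 0.00 over all linked protein-coding genes, of which 8.67% fell. Without single libraries 9 to 11 genes of this list fell, in fits that called 8.39% to 19.6% of all genes in either direction. Among the markers of other cells, only GATA6, an endoderm factor, passed. It rose from 0.43 ± 0.11 to 1.05 ± 0.01 TPM (SD, n = 3 each, log2 fold change 1.46, edgeR, adjusted p = 0.0019). GATA4, PAX6, COL1A1, COL3A1 and CDX2 did not pass, and the remaining markers, among them the endoderm genes SOX17 and AFP, were not tested. The part of GATA6 in the pluripotency falls was not tested. TDGF1, a co-receptor of NODAL signalling, was at 201, 187 and 192 CPM, the count scaled to library size, in the libraries without and at 95.03, 87.1 and 82.3 with doxycycline. Its groups did not overlap, and the log2 fold change was -1.13 ± 0.07 (SE; edgeR, adjusted p = 8.3e-06). TDGF1 had only 2 partners, 10 and 15 kb upstream, both with an OCT4 peak.

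ZSCAN10, a zinc finger factor of embryonic stem cells, was linked to 12 bins, 5 of them with YY1. It stood at 29.6, 19.6 and 21.1 CPM without and 13.8, 12.5 and 12.1 CPM with doxycycline (log2 fold change -0.85 ± 0.14, edgeR, adjusted p = 0.0038). The highest of its values was in the shallowest library. NANOG, a core pluripotency factor, had 2 partners and fell by 0.57 on the log2 scale (edgeR, adjusted p = 1.4e-04). L1TD1, an RNA-binding protein of stem cells, had 16 partners and fell by 0.62 (edgeR, adjusted p = 2.6e-04). SOX2, which acts with OCT4 at many sites, had 16 partners and a log2 fold change of -0.19 that did not pass (edgeR, adjusted p = 0.13).

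POU5F1 itself was among the 9 genes of the list with fewer than 10 partners. Its canonical start lies in the bin chr6:31135001-31140000, which did not hold a YY1 peak in both untreated libraries, held no OCT4 peak and had 4 partners, none with either factor or a promoter. Its RNA was at 240, 177 and 171 CPM without and 199, 170 and 170 CPM with doxycycline, and the groups overlapped (log2 fold change -0.12 ± 0.12, edgeR, adjusted p = 0.53). POU5F1 has near-identical pseudogene copies, among which the counts could be split.

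Genes for proteins that shape loops were among the best connected. Of 17 such genes, 16 were linked, with a median of 16 partners, and 14 had YY1 in the anchor. The start of YY1 itself, in chr14:100705001-100710000, was paired with all 16 bins of its window, of which 2 held a YY1 and 4 an OCT4 peak. YY1 RNA was at 136, 142 and 141 CPM without and 132, 125 and 133 CPM with doxycycline, lower in each treated library, but the difference did not pass (log2 fold change -0.10 ± 0.05, edgeR, adjusted p = 0.20). CTCF, the insulator protein that stops cohesin, had 16 partners too. It was at 71.3, 69.5 and 68.9 CPM without and 58.2, 56.9 and 63.6 CPM with doxycycline, without overlap (log2 fold change -0.23 ± 0.06, edgeR, adjusted p = 0.026).

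The cohesin subunit genes STAG1 and RAD21 and the cohesin regulator PDS5B, each with 16 partners, were the other members that fell. In total 4 of the 16 linked and tested genes of this list fell and 0 rose. Over all linked protein-coding genes tested, 8.67% fell and 18.3% were called. STAG1 was at 18.0, 22.0 and 19.9 CPM without and 14.3, 16.2 and 17.1 CPM with doxycycline (log2 fold change -0.34 ± 0.10, edgeR, adjusted p = 0.038). PDS5B was at 38.4, 43.8 and 42.0 CPM without and 32.1, 32.6 and 37.1 CPM with it (log2 fold change -0.29 ± 0.08, edgeR, adjusted p = 0.029). None of the 4 falls of the list passed without untreated replicate 2 or 3 or treated replicate 1 or 2, and 5 members passed without treated replicate 3. Of all genes, 8.39% to 10.5% were called in the former fits and 14.8% in the latter.

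Genes for Polycomb and INO80 proteins, complexes in which YY1 or its binding partners take part, were all linked. Of the 17, 16 had at least 10 partners and 15 had YY1 in the anchor. EZH2, the methyltransferase of H3K27, had 14 partners. It fell from 54.7, 56.3 and 53.1 CPM to 40.2, 41.8 and 43.8 CPM (log2 fold change -0.38 ± 0.06, edgeR, adjusted p = 0.0022). RYBP, which binds YY1, had 16 partners and fell from 104, 114 and 106 CPM to 85.4, 80.2 and 84.8 CPM (log2 fold change -0.37 ± 0.06, edgeR, adjusted p = 0.0029). INO80 fell as well, EED rose (log2 fold change 0.19, edgeR, adjusted p = 0.045), and 13 of the list did not pass, where 17.9% of all linked genes were called. The rise of EED did not pass with DESeq2, without the filter on low counts, or without any single library other than untreated replicate 1. The list gave 2 calls without untreated replicate 3 or without treated replicate 2, where 10.5% and 8.39% of all genes were called.

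Genes of the mitochondrial respiratory chain were well connected, and 29 of 92 linked and tested rose, beside 9.61% of all linked protein-coding genes. Of the 103 genes, 97 were linked with a median of 15 partners, and 88 had YY1 in the anchor. The assembly factor gene NDUFAF7 was the only one to fall, and the median log2 fold change was 0.19. UQCRFS1, the iron-sulfur subunit of complex III, had 16 partners. It was at 73.4, 74.7 and 79.2 CPM without and 111, 127 and 104 CPM with doxycycline (log2 fold change 0.59 ± 0.08, edgeR, adjusted p = 0.0012). The largest rise, 0.69 on the log2 scale, was that of the readthrough gene NDUFC2-KCTD14 with 3 partners, which shares sequence with NDUFC2, so its counts are uncertain. The list had 14 calls without untreated replicate 2, 16 without treated replicate 1 and 13 without treated replicate 2. In the same fits 8.82%, 10.5% and 8.39% of all genes tested were called.

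Ribosomal protein genes were as well connected, and 3 of those tested changed. Of 82, 76 were linked with a median of 15 partners, 74 had YY1 in the anchor, and of the 76 linked and tested 2 rose and 1 fell. The 2 largest changes were in RPL3L, a muscle paralogue with 3 partners (log2 fold change 0.48), and RPL39L, a testis paralogue with 1 (log2 fold change -0.38). The list had 1 call without untreated replicate 2 or 3 or treated replicate 1, and 0 without treated replicate 2. Of all genes tested, 8.39% to 10.5% were called in these fits. Linked histone genes fell in 8 and rose in 1 of 37 cases, with a median log2 fold change of -0.31, where 8.67% of linked protein-coding genes fell and 18.3% were called. The histone list had 3 to 5 calls without untreated replicate 2 or 3 or treated replicate 2 or 3, fits that called 8.39% to 14.8% of all genes. H1-3, a linker histone gene without YY1 in its own anchor, was paired with 8 bins, 7 of them with YY1 and 5 with other promoters, which are histone genes of the same cluster for the most part. It fell from 6.00, 4.98 and 4.71 CPM to 3.29, 2.78 and 2.42 CPM (log2 fold change -0.87 ± 0.15, edgeR, adjusted p = 0.0053). H4C16 had 12 partners and fell by 0.88 on the log2 scale (edgeR, adjusted p = 0.013), and was not called without untreated replicate 2 or 3 or treated replicate 2.

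The 39 HOX genes, regulators of the body axis, were all linked but had a median of 4 partners, and 15 had YY1 in the anchor. HOXB2 was the only one of 16 tested that changed, from 5.39, 5.42 and 6.20 CPM to 8.91, 8.604 and 7.78 CPM (log2 fold change 0.56 ± 0.10, edgeR, adjusted p = 0.0065), and its 2 partners both held YY1. Over all linked protein-coding genes tested, 18.3% were called. Of 53 clustered protocadherin genes, cell adhesion genes expressed in neurons, 51 were linked with a median of 4 partners, and 34 lay in bins with H3K9me3. PCDHA12 was the only one called of the 46 linked and tested (log2 fold change -1.04 ± 0.30, edgeR, adjusted p = 0.043). It was not called without the filter on low counts, with the replicate block (edgeR, adjusted p = 0.071) or without any library other than untreated replicate 1. The list had 0 calls with DESeq2 and with a minimum of 10 counts in every library. These genes share a constant region, so transcripts of the cluster can be confused.

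Zinc finger genes of chromosome 19 combined many contacts with H3K9me3. Of 249, 221 were linked with a median of 11 partners, 151 had YY1 in the anchor and 124 lay in bins with H3K9me3. Of 220 linked and tested, 35 fell and 4 rose, with a median log2 fold change of -0.13. Over all linked genes 17.9% were called, 8.604% lower and 9.28% higher, so the total called on the list was near that share and the split by direction was not. ZNF585A, paired with all 16 bins of its window, had H3K9me3 in its own anchor, in all 8 downstream partners and in the upstream partners at 10, 15 and 20 kb, and its 2 farthest upstream partners held YY1 and the starts of the zinc finger genes ZNF585B and ZNF383. It was at 74.6, 88.4 and 76.0 CPM without and 28.7, 31.8 and 32.9 CPM with doxycycline (log2 fold change -1.36 ± 0.08, edgeR, adjusted p = 1.1e-05). ZNF541, at most 0.70 CPM in any library, rose (log2 fold change 1.35 ± 0.32, edgeR, adjusted p = 0.019), and was not called without untreated replicate 2 or 3 or treated replicate 2 or 3. The calls on this list, 39 with all libraries, were 12 without untreated replicate 2 or treated replicate 2, 16 without untreated replicate 3 and 20 without treated replicate 1. In the same fits, in this order, 8.82%, 8.39%, 10.5% and 10.5% of all genes were called. These genes are similar in sequence, so counts can be shared among them.

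**Figure D3:**
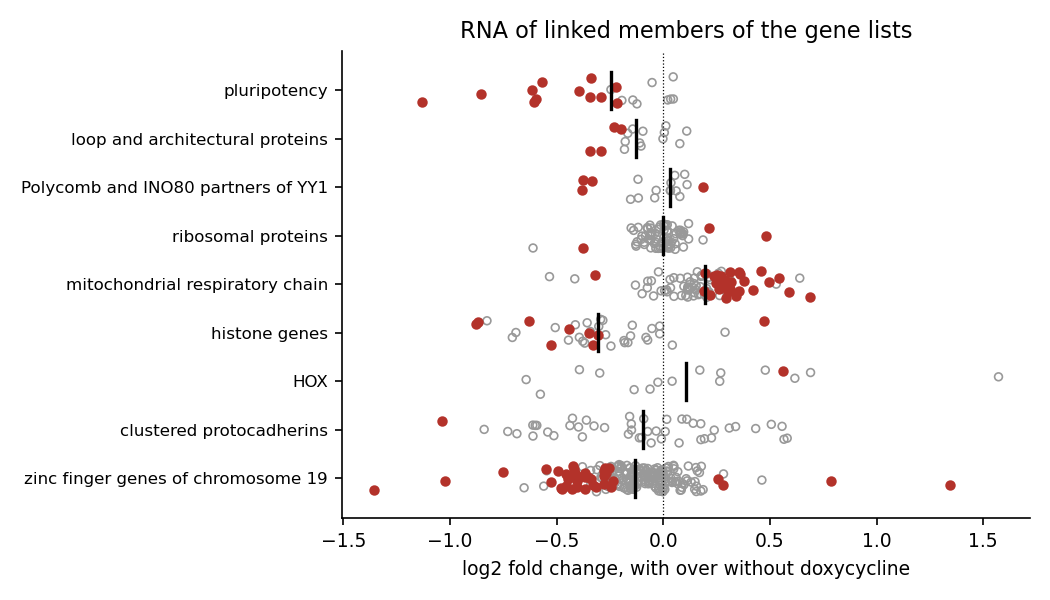
Log2 fold change of RNA with over without doxycycline for the linked and tested genes of 9 lists. Filled points passed edgeR at an adjusted p under 0.05, open points did not, and the black bar is the median of a list; the pluripotency median is -0.25 and the respiratory chain median 0.19.

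Among the 5 largest rises and 5 largest falls, 8 genes had fewer than 10 partners. Of all 16130 linked protein-coding genes, 7145 had at least 10, and those with fewer had lower median expression. ZNF10 rose from 10.0, 11.8 and 10.7 CPM to 362, 374 and 459 CPM (log2 fold change 5.19 ± 0.12, edgeR, adjusted p = 5.6e-08). ZNF10 is the usual source of the KRAB domain of such repressors, and RNA of the transgene and of the gene cannot be told apart in these counts. Its anchor held YY1, OCT4 and H3K9me3, and its 11 partners held H3K9me3 and neither factor. SFXN3, a mitochondrial serine transporter, had 9 partners, 6 with YY1. It rose from 0.68, 0.25 and 0.49 CPM to 23.2, 6.03 and 18.5 CPM, with a wide spread among the treated libraries (log2 fold change 5.17 ± 0.60, edgeR, adjusted p = 5.9e-04).

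The other 3 large rises had 2 or 3 partners. IL23R, a cytokine receptor gene, rose from at most 0.28 CPM to between 6.62 and 8.52 CPM (log2 fold change 4.81 ± 0.20). CSF3, which encodes the granulocyte growth factor G-CSF, rose from at most 0.82 CPM to between 9.09 and 10.4 CPM (log2 fold change 3.65 ± 0.13). Neither had YY1 or OCT4 in its anchor, and for both genes 2 partners held YY1. FOXD1, a forkhead factor with both factors in its anchor, rose from at most 2.62 CPM to between 25.4 and 29.8 CPM (log2 fold change 3.44 ± 0.10).

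Among the largest falls, CILP, a cartilage matrix protein gene, went from 38.9, 47.6 and 30.9 CPM to 1.78, 1.53 and 1.45 CPM (log2 fold change -4.62 ± 0.18, edgeR, adjusted p = 8.6e-07). Its anchor held neither factor, and its 2 partners, 25 kb downstream at the CLPX promoter and 45 kb upstream, each held both YY1 and OCT4. CRYAA, a lens crystallin gene, also had 2 partners, both with OCT4, and fell from at least 3.95 CPM to at most 0.36 CPM (log2 fold change -3.88 ± 0.25). CHI3L2, a chitinase-like gene, lay in an anchor with H3K9me3 and 1 partner, and fell from at least 14.8 CPM to at most 2.22 CPM (log2 fold change -3.17 ± 0.15). ABCC2, an organic anion transporter gene with 1 partner, had a log2 fold change of -3.61 ± 0.29. INSYN2B differed from these in having 15 partners and both factors in its anchor, with a log2 fold change of -3.51 ± 0.29.

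Genes with the most contacts included some that changed and some that did not. Ties at 16 partners are many, and the first 5 by position were NOC2L, ISG15, SDF4, B3GALT6 and CCNL2 on chromosome 1, all with YY1 in the anchor. NOC2L, a histone acetylation inhibitor, was at 239, 232 and 224 CPM without and 241, 234 and 232 CPM with doxycycline, with overlapping groups. CCNL2, a cyclin of RNA processing, overlapped too, at 217 to 231 CPM without and 207 to 229 CPM with it. ISG15, a ubiquitin-like protein, rose from 3.82, 3.31 and 3.37 CPM to 6.53, 5.26 and 5.04 CPM (log2 fold change 0.69 ± 0.14, edgeR, adjusted p = 0.0087). SDF4 and B3GALT6 start in the same anchor, in opposite directions. SDF4 rose by 0.25 ± 0.06 on the log2 scale (edgeR, adjusted p = 0.027), and did not pass without untreated replicate 2 or 3 or treated replicate 1 or 2. B3GALT6 was at 4.36, 23.6 and 26.9 CPM without and 33.8, 28.8 and 32.5 CPM with doxycycline (log2 fold change 0.71 ± 0.40, edgeR, adjusted p = 0.26), and of the alternatives run it passed only without the low untreated replicate 1 (log2 fold change 0.32, edgeR, adjusted p = 0.036).

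Listed pairs joined promoters in 6267 cases, and 8604 pairs of genes lay across them. Both genes were tested in 6373 of these gene pairs and both had changed with doxycycline in 245. In 196 of the 245 (80.0%) they had changed in the same direction. At promoter pairs of the same distances that were not listed, both genes had changed in 101 of 2615 gene pairs tested, a similar share. The direction was the same in 84.2% of the 101, so a shared direction was no more frequent at listed pairs.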

How the data were processed

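ChIP-seq, HiChIP and RNA-seq libraries of NCCITs (23 samples) were grouped by their labels. For ChIP-seq, the authors trimmed reads with TrimGalore!, aligned them to hg19 with BWA MEM, removed low-quality and duplicate alignments, and called peaks per library. The deposited peak lists give a fold enrichment (ratio) and −log10 p and q values, and the peak caller is not given in the sources used here. For RNA, the authors deposited kallisto estimated counts and TPM per transcript. The deposited HiChIP table gives 5 kb bin pairs, and how these were made is not given in the sources used here. Its 16 columns per sample (12 of counts and q values, 4 of coverage) match no label and were not used, so the planned test of contacts between conditions was not run and no pairs were named by count.

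A feature counted as present in a bin from an overlap of 1 bp. YY1 and H3K9me3 classes needed a peak in both libraries without doxycycline, and OCT4 the library without doxycycline. Starts were those of Ensembl canonical transcripts in GENCODE 44 lifted to GRCh37. Estimated counts were summed per gene, rounded and tested with edgeR 4.0.16 (filterByExpr, TMM, quasi-likelihood, Benjamini-Hochberg over all genes tested, threshold 0.05), and at least 95.9% of counts per library were matched to genes. DESeq2 1.42.0 was an alternative. R was 4.3.3, Python 3.11.15, scipy 1.17.1 and bedtools 2.31.1. Both the overlap and the RNA code were tested on simulated data.

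Genes were named by rule: the 5 protein-coding genes with the most partners (ties by position), the 5 largest rises and 5 largest falls among linked protein-coding genes that were called, whose libraries did not overlap between conditions and averaged 1 CPM or more, up to 2 called genes per list by size of change, and POU5F1, YY1 and CTCF in any case. A few further list members were named after their values were seen (NANOG, L1TD1, SOX2, RAD21, INO80, EED and NDUFAF7). Members and lists were chosen with earlier results of these data known. The sequences are 29 bases long, shorter than planned, because some lie in UTRs, and 1 of the 8 chosen by the rule is not reported here. Wilson intervals cover counting error only.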

Additional observations from a re-analysis of the deposited data

How the results depend on the processing

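The share of anchors with an OCT4 peak was 6.16 percentage points lower with doxycycline. The difference was -5.69 with the summit in the anchor, -4.08 at a −log10 q of at least 5, -6.83 with anchors under 30 kb apart and -0.44 with equal numbers of peaks, and the cause was not tested. For YY1 the difference was 7.34 without replicate 1 and 5.17 without replicate 2, and for H3K9me3 it was -0.39 and -5.57. The direction was kept for both under the alternatives run, and the exact permutation test cannot go below p = 0.333 with 2 against 2 libraries.

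The number of linked genes called, 2486, ranged from 1190 to 2851 when single RNA libraries were left out, and was 1190 without treated replicate 2, 1260 without untreated replicate 2, 1504 without treated replicate 1 and 1516 without untreated replicate 3. Fewer libraries entered these fits. In the fits just named, in the same order, 8.39%, 8.82%, 10.5% and 10.5% of all genes were called, beside 17.5% in the main fit. Under the other alternatives it lay between 2293 (anchors under 30 kb apart) and 2900 (replicate block). The main fit did not pair the RNA libraries by replicate number. Deviations of same-numbered libraries had correlations of 0.28, 0.09 and -0.02, and those of other combinations ran from -0.27 to 0.18. These few values do not settle whether the libraries were paired. Of the named genes' values under alternatives, 327 kept direction and side of the threshold, 36 no longer passed, 1 newly passed and 1 reversed: the log2 fold change of POU5F1, -0.12, ranged from -0.21 without untreated replicate 3 to 0.043 without untreated replicate 1 (edgeR, adjusted p = 0.74).

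With alternatives chosen after seeing the data, the listed share of pairs with YY1 in both anchors was 72.4% by summits, 76.9% at a −log10 q of at least 5, 50.4% with a peak in either library, 72.9% with a peak in all 4 and 73.8% under 30 kb. The outermost gene start, also chosen after seeing the data, gave 2464 linked genes called. The alternatives planned for HiChIP contacts were not run, because the count columns match no sample. A paired fit of the ChIP-seq shares was not run.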
